A study of Mus musculus with 195 samples.

Results

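The genes described here are 9 transcription factors of the neural lineage, Olig1, Olig2, Sox3, Sox4, Sox8, Sox9, Sox11, Hes1 and Hes5, chosen by name from the 19736 genes of a count table of single mouse cells. All 9 were found in the table by their Ensembl identifiers. Cells of 3 populations of the 46C line, a Sox1-GFP reporter line derived from E14tg2a embryonic stem cells, were profiled by BATSeq, which counts transcript molecules by unique molecular identifiers (UMIs) at the polyadenylation site. ESC-2i cells were grown without serum in LIF (10 ng/ml) with the MEK inhibitor PD0325901 (1 μM) and the GSK3 inhibitor CHIR99021 (3 μM), and ESC-FCS cells in LIF (10 ng/ml) with 10% fetal bovine serum. The NSC had been made from such cells by monolayer differentiation, sorting of GFP-positive cells, and expansion in EGF and bFGF until the GFP was lost. All cells were small cells in G0/G1 sorted on DNA dye and scatter. The reporter marks an early neural stage, and each population was treated as 1 culture, so populations were compared by values alone and no test between them was possible.

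Of 48 sorted wells per population, 41 NSC, 33 ESC-2i and 33 ESC-FCS cells were kept. They held 1234 to 9037, 5342 to 21050 and 1079 to 14819 molecules on genes, so NSC were the shallowest by the median (3282, 10864 and 6375). Each population was prepared as 2 library batches. No combination of batch and cell barcode was shared between the 144 main cells. Levels are given as molecules per 10000 molecules on genes, pooled over cells, with exact Poisson 95% intervals that cover counting error only. Each captured transcript gives 1 count at its 3′ end whatever its length, so levels were not divided by gene length. Most transcripts were not captured, and whether capture differed between genes was not tested.

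Olig1 and Olig2 are basic helix-loop-helix (bHLH) factors of the oligodendrocyte lineage, and Olig2 also marks ventral progenitors and neural stem cells cultured in growth factors. Sox3 belongs to the SoxB1 group that keeps progenitors undifferentiated, Sox4 and Sox11 to the SoxC group of differentiating neurons, and Sox8 and Sox9 to the SoxE group of glial specification. Hes1 and Hes5 are repressors that Notch signalling induces and that hold back the proneural bHLH factors.

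The last 30 bases of the transcript at the most used polyadenylation site of each gene are shown because they are the ends that were counted. They are read 5′ to 3′ on the transcript strand from GENCODE M21 transcripts (GRCm38), and capitals mark the hexamer AATAAA, the canonical polyadenylation signal.
Olig1: tacagaaatcacaaAATAAAacgtcaacag
Olig2: gagtgttgagattttaAATAAAatttaaag
Sox3: ttgctaagtgagagatcAATAAAttttata
Sox4: aggaAATAAAatcagctggaactgaaccct
Sox8: tgataaaatttaaaaaaaaaaatgttttct
Sox9: attattgtttacAATAAAtatacattgcat
Sox11 (distal): aaagaccAATAAAaatcgtgtgatcaatct
Sox11 (proximal): taAATAAAcagaccattgcatatttagtag
Hes1: atttgagaaaatatAATAAAagagtgaagg
Hes5: ttctgaaggcttctAATAAAatatcaagcc
These stretches all lie in the last exon, in the 3′ untranslated region (3′ UTR). They are chr16:91271899-91271928 (plus strand) for Olig1, chr16:91228645-91228674 (plus) for Olig2, chrX:60891373-60891402 (minus) for Sox3, chr13:28948922-28948951 (minus) for Sox4 and chr17:25565900-25565929 (minus) for Sox8. The others are chr11:112787715-112787744 (plus) for Sox9, chr12:27335218-27335247 and chr12:27339804-27339833 (minus) for Sox11, chr16:30067761-30067790 (plus) for Hes1 and chr4:154962338-154962367 (plus) for Hes5. AATAAA was found in the last 50 bases before the most used site of every gene but Sox8, where neither it nor ATTAAA was present, searched on the transcript strand only. Among 16708 sites of at least 3 molecules that lie in an annotated transcript, 55.8% held AATAAA and 70.7% held AATAAA or ATTAAA in the same window.

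In NSC, Olig1 and Olig2 stood at the top of the 9 genes. Olig1 had 93 molecules in 30 of 41 NSC (73.2%, exact Clopper-Pearson 95% interval 57.1 to 85.8%), against 1 molecule in 33 ESC-2i cells and 2 in 33 ESC-FCS cells. Its level per NSC cell ran from 0 over a median of 4.58 to 25.6 per 10000, and its pooled level was 6.12 (4.94 to 7.50), against 0.027 in ESC-2i and 0.088 in ESC-FCS. The highest ESC level of Olig1, in 1 ESC-FCS cell, was 1.38 per 10000. Every NSC cell with a molecule lay above it, the lowest at 1.49. Each of these levels came from 1 molecule, in cells of 7238 and 6690 molecules, so their order follows depth. Counted in molecules, each ESC cell with Olig1 held 1, as did 8 NSC, and 11 NSC held none. The pooled level was 226-fold higher in NSC than in ESC-2i (39.5 to 9004) and 69.4-fold higher than in ESC-FCS (18.7 to 582).

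Olig2 had 74 molecules in 27 of 41 NSC (65.9%, 49.4 to 79.9%), 1 in ESC-2i and none in ESC-FCS. Its level per NSC cell ran from 0 over a median of 4.60 to 23.3 per 10000. Its pooled level of 4.87 (3.83 to 6.12) overlapped that of Olig1 in its interval. In the order of levels in NSC (Olig1, Olig2, Sox4, Sox3, Sox11, Hes5, Sox9, Hes1, Sox8) only Olig2 and Sox4 were neighbours whose intervals did not overlap. Olig2 was 179-fold higher in NSC than in ESC-2i (31.2 to 7184) and at least 36.8-fold higher than in ESC-FCS, where the count of 0 was set to 3 molecules. Here and below, such a bound takes the other count as observed and leaves out its counting error. The ratios to ESC-2i rest on a single ESC-2i molecule of each Olig gene. Without the batch that held it they were bounds, at least 39.6-fold for Olig1 (without ESC-2i batch 1) and at least 28.3-fold for Olig2 (without ESC-2i batch 2). The gene lies on the same chromosome as Olig1, with 41094 bases from its end to the start of Olig1.

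**Figure D1:**
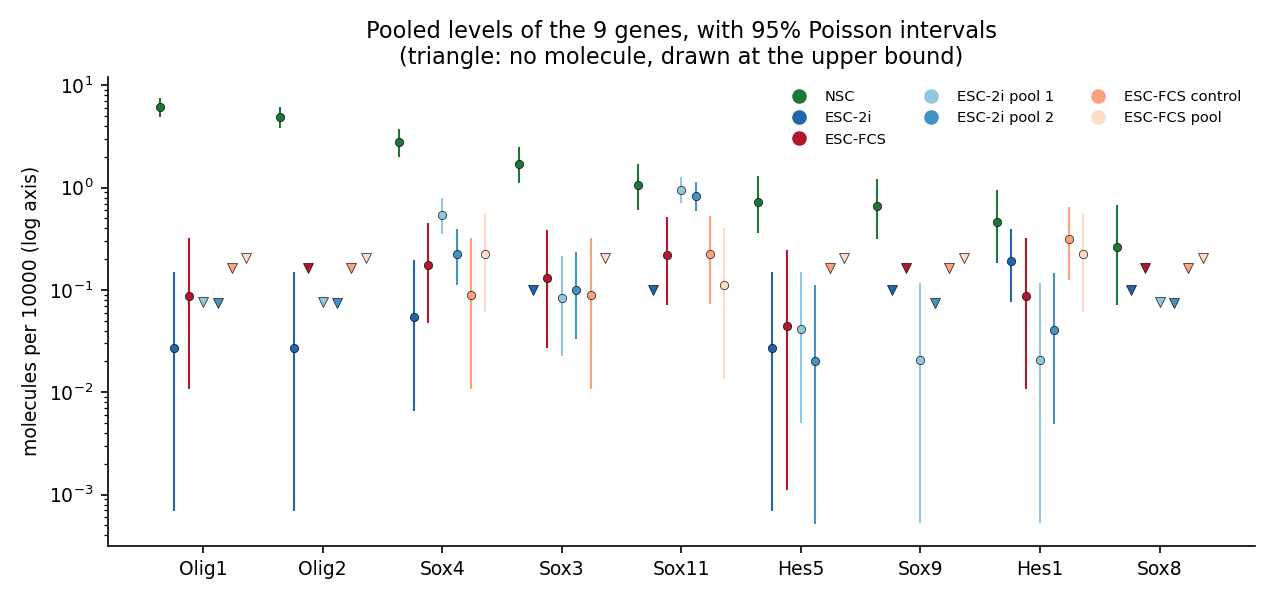
Pooled level of each gene (molecules per 10000, log axis) in NSC, ESC-2i and ESC-FCS cells and in the separate ESC libraries, with 95% Poisson intervals and triangles at the upper bound where no molecule was found. NSC lie highest for Olig1 (6.12), Olig2, Sox4 and Sox3, while for Sox11 the 2 ESC-2i pools lie beside NSC and for Hes1 the intervals overlap.

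Of the SoxC genes, Sox4 had 42 molecules in 20 of 41 NSC at a pooled level of 2.77 (1.99 to 3.74), against 2 molecules in ESC-2i and 4 in ESC-FCS. The other 21 NSC had none, and the highest NSC cell held 18.4 per 10000. Sox4 was 50.9-fold higher in NSC than in ESC-2i (13.2 to 434) and 15.7-fold higher than in ESC-FCS (5.69 to 60.2). Sox11 had 16 molecules in 11 NSC, with at most 2 in a cell, at a pooled level of 1.05 (0.60 to 1.71). No ESC-2i cell held a Sox11 molecule (0 of 33 cells), and 5 molecules lay in 4 ESC-FCS cells. With the 0 set to 3 counts, 9.09% of ESC-2i cells could hold a UMI, and the exact upper bound is 10.6%. Neither value limits the share of cells that expresses the gene. By the same setting Sox11 was at least 12.9-fold higher in NSC than in ESC-2i cells, a bound without the counting error of its 16 NSC molecules. It was 4.78-fold higher than in ESC-FCS cells (1.67 to 16.7).

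Sox3, the SoxB1 gene, had 26 molecules in 18 of 41 NSC at a pooled level of 1.71 (1.12 to 2.51), none in ESC-2i and 3 in ESC-FCS. In 13 of the 18 NSC it was a single molecule, so its presence in a cell was near the limit of detection. It was at least 21.0-fold higher than in ESC-2i and 12.9-fold higher than in ESC-FCS (3.96 to 66.8). The SoxE genes were scarcer and were seen in no ESC cell of either population. Sox9 had 10 molecules in 7 NSC (0.66 per 10000, 0.32 to 1.21), at least 8.08-fold and 4.98-fold above ESC-2i and ESC-FCS. Sox8 had 4 molecules in 3 NSC (0.26, 0.07 to 0.67), too few for a statement on its fold.

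The Notch effectors were lower in NSC than the Olig genes. Hes5 had 11 molecules in 7 NSC (0.72 per 10000, 0.36 to 1.30) and 1 in each ESC population, a ratio of 26.7 (3.88 to 1148) to ESC-2i and 16.4 (2.39 to 707) to ESC-FCS. Hes1 had 7 molecules in 6 NSC (0.46, 0.19 to 0.95), 7 in 5 ESC-2i cells (0.19, 0.08 to 0.39) and 2 in ESC-FCS (0.09, 0.01 to 0.32). Hes1 was the only one of the 9 genes with as many molecules in an ESC population as in NSC. Its ratio of NSC to ESC-2i was 2.43 (0.726 to 8.10), which includes 1, and that to ESC-FCS was 5.22 (0.995 to 51.5).

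A gene was called higher where its pooled level differed by at least 2-fold, among genes with at least 10 molecules in the 2 populations together. By that rule 8 of the 8 members that could be called were higher in NSC than in ESC-2i, where 22.9% of 7567 genes were higher. Against ESC-FCS it was 7 of 7, where 25.1% of 6214 genes were higher. The median log2 ratio of these members was 4.57 against ESC-2i, beside -0.01 over all genes, and 3.97 against ESC-FCS, beside 0.09. All of these but Hes1, which had 7 molecules in NSC and 7 in ESC-2i, passed the limit of 10 molecules through their NSC counts, so the counts describe them and support no statement on the group. Between ESC-2i and ESC-FCS none of the 9 reached 10 molecules, and no call was possible, where 28.9% of 7636 genes were apart. NSC held fewer gene molecules per ERCC spike-in molecule (9.49) than ESC-2i (11.7) and ESC-FCS (24.0), a shift of -0.30 and -1.34 on the log2 scale. With NSC batch 1 alone 5 members could be called against ESC-2i, and all 5 were higher. Per ERCC molecule 7 of 8 remained higher than in ESC-2i, with Hes1 at 1.97-fold. Against ESC-FCS 5 of 7 did, with Sox11 at 1.89-fold and Sox9 at a bound of 1.96-fold. Shares over all genes were not computed for NSC batch 1 alone or per ERCC molecule, where every gene moves by the shift given.

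Depth differed between the populations, so shares of cells were also set to a common depth. Thinned to 1000 molecules per cell, the expected share of NSC with a molecule was 40.8% for Olig1, 37.2% for Olig2, 24.2% for Sox4 and 16.5% for Sox3, and it was 8.95% for Sox11, 7.45% for Sox9, 6.76% for Hes5, 4.34% for Hes1 and 3.17% for Sox8. At the same depth the ESC shares were highest for Sox11 in ESC-FCS, 3.76%, and did not exceed 0.667% for Olig1 or 0.202% for Olig2. Among the 20 NSC below the median depth 12 held Olig1, and 18 of the 21 others did. For Olig2 these were 13 and 14, for Sox3 8 and 10, for Sox11 3 and 8, for Hes1 2 and 4, for Hes5 3 and 4 and for Sox8 1 and 2. Sox4 and Sox9 went the other way, with 11 and 9 and with 4 and 3.

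The 2 NSC library batches (21 and 20 cells) gave the same level for some genes and not for others. Sox4 stood at 2.76 and 2.77 per 10000 and Olig2 at 4.76 and 4.99 in batches 1 and 2. Olig1 was higher in batch 1, at 8.02 (6.18 to 10.2) against 4.02 (2.69 to 5.78), and these intervals did not overlap. Hes5 was found in batch 2 alone, with 11 molecules in 7 of 20 cells (1.53, 0.76 to 2.73), and in none of the 21 cells of batch 1 (upper bound 0.46). Hes1 lay the other way, with 6 molecules in batch 1 and 1 in batch 2. The part of library preparation in these differences was not tested, since the sources used here name no other difference between the batches. Each pairing of an NSC with an ESC batch had the higher level in NSC for 7 of the 9 genes. For Hes5 this held in 2 of 4 pairings with either ESC population, and for Hes1 in 3 of 4 with ESC-2i.

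**Figure D2:**
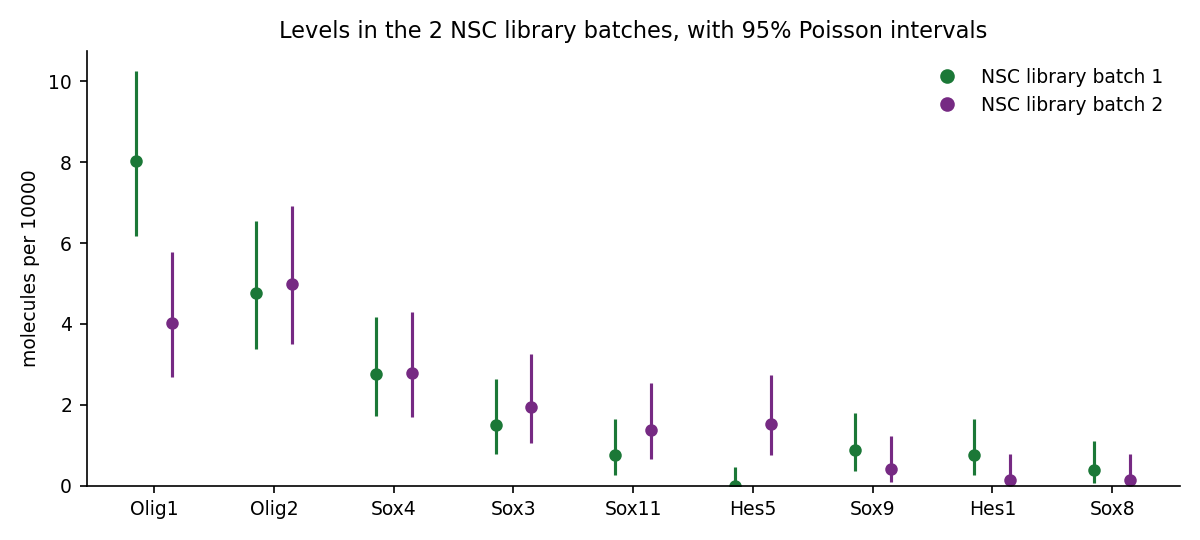
Level of each gene (molecules per 10000, with 95% Poisson intervals) in the 2 library batches of NSC. Olig1 was at 8.02 in batch 1 and 4.02 in batch 2, and Hes5 was at 0 in batch 1 and 1.53 in batch 2.

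Between single NSC the genes were found in many combinations. Of 41 NSC, 1 held none of the 9 genes, 3 held 1, 11 held 2, 13 held 3 and 13 held 4 or more, with 8 the most. The summed level was 18.6 per 10000 in NSC, and it was 0.326 in ESC-2i and 0.750 in ESC-FCS. At least 1 of the genes was seen in 40 of 41 NSC, 9 of 33 ESC-2i cells and 13 of 33 ESC-FCS cells.

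**Figure D3:**
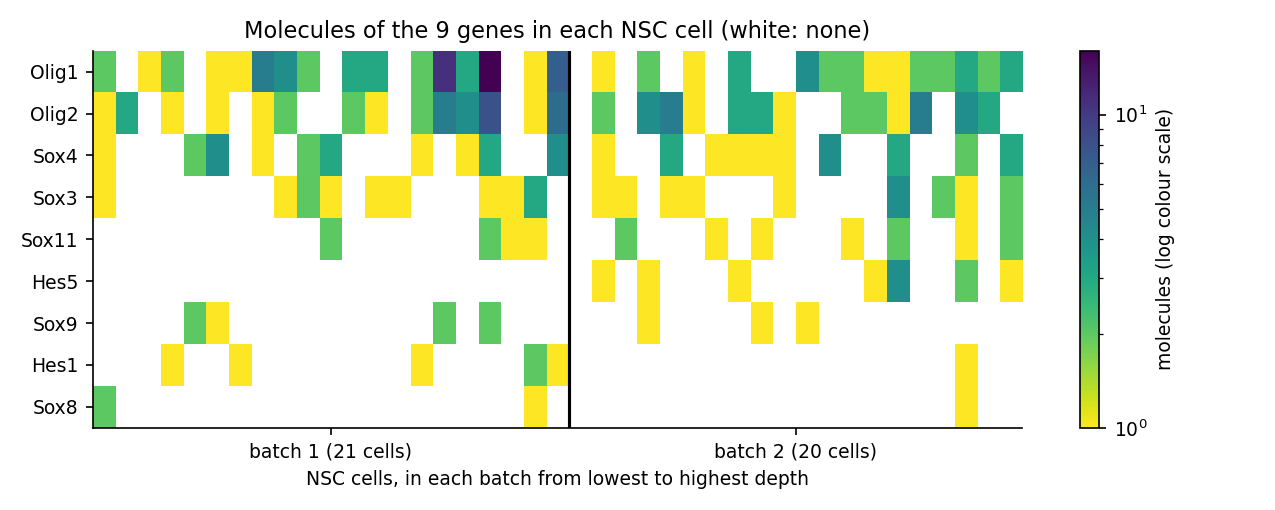
Molecules of each gene (log colour scale, white for none) in the 41 NSC, ordered within each library batch from lowest to highest depth. Olig1 and Olig2 fill most columns in both batches, with up to 16 molecules of Olig1 in a cell, and the row of Hes5 is empty in batch 1.

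Olig1 and Olig2 were seen together in 23 of 41 NSC, where the product of their shares gives 19.8. Olig1 alone was seen in 7 NSC, Olig2 alone in 4 and neither in 7, so the data show no exclusion of one by the other. Over the 41 cells the log2 levels (with 1 added) had Pearson r = 0.329 and Spearman rho = 0.365. Among all 1073845 pairs of the 1466 genes with at least 20 molecules in NSC, r had a median of 0.01 and 90% of pairs lay between -0.262 and 0.290. Within batches r was 0.496 in batch 1 and 0.189 in batch 2, and it was 0.029 in a single draw of 1000 molecules from each cell. The cells share library batches and their counts are low, so these values are descriptions.

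The other pairs of genes with at least 20 molecules kept near the product of their shares. Olig1 and Sox3 were seen together in 12 NSC (13.2 from the shares, r = -0.128), Olig1 and Sox4 in 14 (14.6, r = -0.054), Olig2 and Sox3 in 11 (11.9, r = -0.129) and Olig2 and Sox4 in 14 (13.2, r = 0.045). Sox3 and Sox4 shared 10 cells (8.78 from the shares, r = 0.210), and their r was -0.178 after thinning. None of these 5 pairs lay outside the central 90% of all pairs. The remaining genes had too few molecules for a pair to be described.

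**Figure D4:**
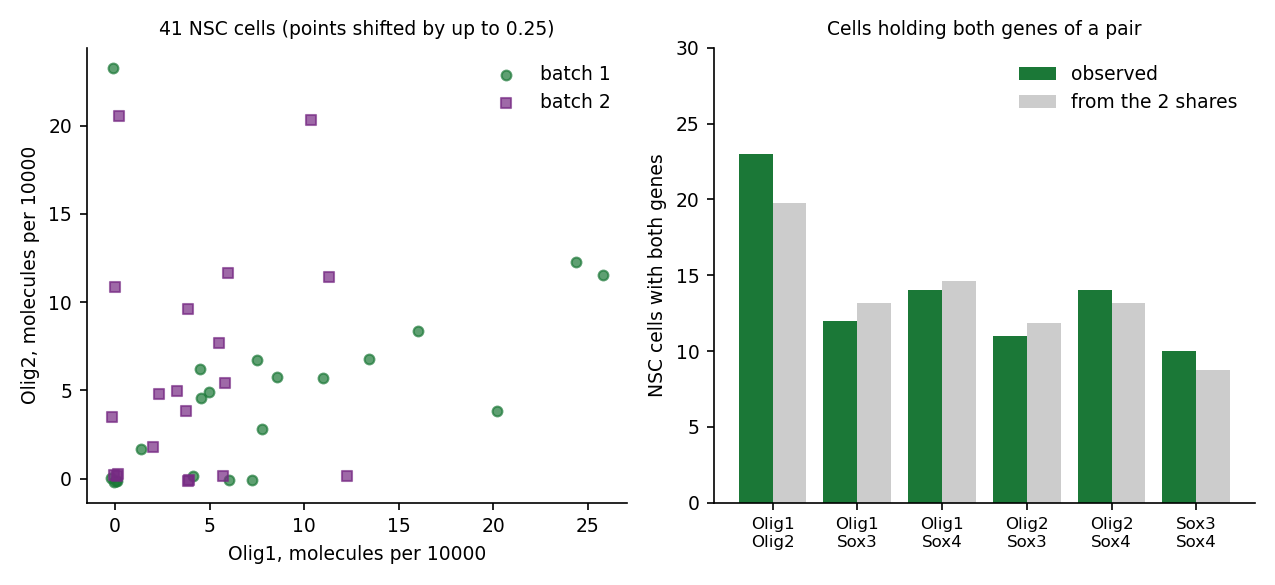
Left, levels of Olig1 and Olig2 (molecules per 10000) in the 41 NSC by library batch, with points shifted slightly so that equal values can be seen. Right, the number of NSC with both genes of a pair (green) beside the number that the shares of the 2 genes give (grey), 23 against 19.8 for Olig1 and Olig2 and 10 against 8.78 for Sox3 and Sox4.

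Of the 1466 genes with at least 20 molecules, Olig1 was closest between NSC to Tpi1, a glycolytic enzyme (r = 0.514), Olig2 to Tead2, a transcription factor of the Hippo pathway (r = 0.533), and Sox4 to Ost4, a small subunit of the oligosaccharyltransferase (r = 0.510). Each r is over 41 cells and is the highest of all the genes compared, so it is given as a description.

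The spread of the genes between NSC was set against technical noise. In the test of Brennecke and colleagues, which compares the squared coefficient of variation (CV2) of a gene with a fit to ERCC transcripts, 124 of 1157 genes passed at a Benjamini-Hochberg adjusted p below 0.1 (10.7%). Olig2 was among them and the other 3 members tested were not, with a CV2 of 1.42 where the fit gave 0.603 (adjusted p = 0.0558, cells as units). Olig1 had a CV2 of 1.11 against 0.564 (adjusted p = 0.344), Sox4 1.97 against 1.08 (0.184) and Sox3 2.02 against 1.80 (1.00), and the other 5 genes were below the mean needed. Whether Olig2 varied more than Olig1 was not tested. The call of Olig2 did not hold in either batch alone (adjusted p = 0.446 in batch 1 and 0.559 in batch 2) or in cells with at least 2000 molecules. In the test without a margin above the fit, 342 genes passed, among them Olig1 and Sox4 (adjusted p = 0.00203 and 0.0071).

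The most used polyadenylation sites of Olig1, Olig2, Sox3 and Hes5 lay within 10 bases of an annotated transcript end. In NSC 90 of 93 Olig1 molecules (96.8%, 90.9 to 99.3%) and 69 of 74 Olig2 molecules (93.2%, 84.9 to 97.8%) used the site shown above, which leaves a 3′ UTR of 1269 and 1303 bases. All 26 Sox3 molecules used a single site, with a 3′ UTR of 705 bases. The 11 Hes5 molecules of NSC all used the annotated end. The Hes5 molecule of ESC-2i and that of ESC-FCS lay 5095 bases beyond it, at position 154967466 of chromosome 4, inside a gene on the same strand, Pank4, and outside its exons. No ESC cell used for these levels thus held a molecule at the Hes5 end, and with sites up to 2000 bases beyond a gene alone Hes5 was at least 8.97-fold higher in NSC than in ESC-2i and 5.49-fold higher than in ESC-FCS.

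Sox4 had 6 sites in NSC. The annotated end took 32 of 42 molecules (76.2%, 60.5 to 87.9%) and a 3′ UTR of 2777 bases, and the other 10 molecules lay at 5 sites that leave 116 to 2672 bases. None of these 5 sites had AATAAA or ATTAAA in the 50 bases before it, and none held more than 4 molecules. Whether they are true ends was not tested. All 6 molecules of the single ESC cells used the annotated end, and in the ESC-2i pools 32 of the 36 Sox4 molecules in the 3′ UTR did (88.9%), with the others at sites down to 960 bases after the stop codon. The reads were less even than the molecules, since the annotated end had 12.7 reads per molecule and the other sites 2.20, so that it took 94.9% of the reads. Of 10 Sox9 molecules 5 lay at the site shown above, and the others at 4 sites, of which the first lay 63 bases before the stop codon. Sox8 had 3 of 4 molecules at its annotated end. Of 7 Hes1 molecules in NSC 4 lay at the annotated end, and 2 of 7 did in ESC-2i. A Hes1 molecule in each ESC population lay at position 30065561 of chromosome 16, near the end of a short processed transcript of the gene, and no NSC molecule did.

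In NSC the most used site held a smaller share of the molecules for Sox11 than for any other of the 9 genes (25%, 7.27 to 52.4%). That interval overlaps those of Sox8, Sox9 and Hes1. With sites within 25 bases joined, Sox11 had 37.5% of its molecules at the most used site, and 49.1% of its reads lay at 1 site. Its 16 NSC molecules lay at 8 sites that leave 1397 to 6365 bases of a 3′ UTR annotated at 6957 bases in GENCODE M21, with a median of 3898. The proximal and the distal site shown above, at 1417 and 6003 bases after the stop codon, held 4 molecules each. In the older annotation the authors used, all 16 were downstream of the gene, and 9 of them (56.3%, 29.9 to 80.2%) lay more than 2000 bases beyond its end. With only sites up to 2000 bases beyond that end, the Sox11 level in NSC was 0.48 in place of 1.05, and the gene no longer reached 10 molecules in either comparison.

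**Figure D5:**
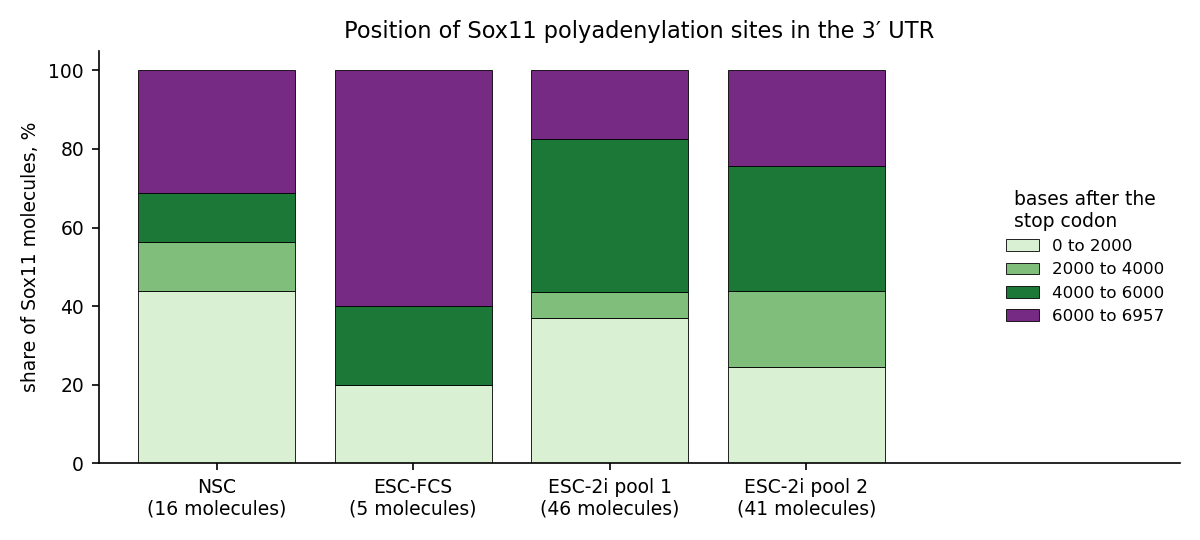
Share of Sox11 molecules (%) by the distance of their polyadenylation site from the stop codon, in NSC and ESC-FCS cells and in the 2 ESC-2i pools. Each bar is spread over the 3′ UTR, with 7 of 16 NSC molecules and 17 of 46 and 10 of 41 molecules of the pools in the first 2000 bases.

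Separate ESC libraries gave the same genes in other preparations. In 2 libraries from pools of 48 ESC-2i cells (479391 and 494694 molecules), where RNA was purified first, Sox11 had 46 and 41 molecules, or 0.96 and 0.83 per 10000. The pooled level of 0.89 was at least 11.0-fold higher than in the single ESC-2i cells, whose upper bound was 0.10, and NSC stood at 1.18 times the pools (0.646 to 2.03). The ratio of Sox11 between NSC and ESC-2i thus depended on which ESC-2i libraries were used. Sox4 was likewise higher in the pools, with 26 and 11 molecules, 7.00-fold above the cells (1.80 to 59.9), and NSC were 7.28-fold above the pools (4.57 to 11.6). The pools differed from each other by 2.44-fold in Sox4 (1.16 to 5.47). With pool 2 alone Sox4 was 4.10-fold above the cells (0.894 to 38.0), an interval that includes 1, and NSC were 12.4-fold above it (6.29 to 26.8). Between pools and single ESC-2i cells 36.1% of 10604 genes were at least 2-fold higher in the pools. In a pool, fewer cells with a transcript and less RNA per cell cannot be told apart.

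Hes1 lay the other way, with 3 molecules in the pools against 7 in the cells, a ratio of 0.162 (0.027 to 0.710). Sox3 had 4 and 5 molecules in the pools, Hes5 2 and 1, and Sox9 1 and 0. Olig1, Olig2 and Sox8 had no molecule in either ESC-2i pool, in the 42 ESC-FCS control cells kept or in the ESC-FCS pool. The 2 ESC-2i pools carried batch barcodes that NSC batches also carried. All 48 ESC-FCS control cells, of which 42 were kept, carried a pair of batch and cell barcode that a main cell also carried. In the ESC-FCS control cells Hes1 had 7 molecules and Sox11 5, and Sox3 and Sox4 had 2 each. The control level of Sox11 (0.22 per 10000) was 1.02 times that of the main ESC-FCS cells (0.234 to 4.41), and that of Hes1 was 3.56 times (0.677 to 35.1). With the control cells in place of the main ESC-FCS cells, 7 of 8 members were higher in NSC and Hes1, at 1.47-fold, was not. The share of all genes higher in NSC than in the control cells was not computed, so this count only describes the members. The 87 Sox11 molecules of the pools lay at 18 positions in the 3′ UTR, from 156 to 6623 bases after the stop codon, most often at 27336374 (21 molecules), 27339803 (17) and 27335218 (15) on chromosome 12, and 63.0% and 75.6% of them, by pool, lay more than 2000 bases beyond the authors' gene end.

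Other genes of the same families and pathways were counted by the same rule. Of all genes, 22.9% were higher and 23.4% lower in NSC than in ESC-2i. Against ESC-FCS 25.1% were higher and 21% lower. A gene absent from a population could pass the limit of molecules only through the other population. Each list count therefore describes the genes that could be called. Of 12 other Sox genes 3 could be called in either comparison, of which 1 was higher and 1 lower in NSC than in ESC-2i, and 1 higher and 1 lower than in ESC-FCS. Sox6, a SoxD gene, was higher in NSC, with 35 molecules against 1 in ESC-2i and 1 in ESC-FCS. Sox2, the SoxB1 gene shared by both kinds of stem cell, had 17, 60 and 52 molecules, a level of 1.12 in NSC against 1.63 and 2.29. Sox21 had 4, 3 and 2 molecules. Sox1, whose reporter the line carries, was not among the genes counted and so had no molecule in any of the 3.

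Of 13 proneural bHLH genes, their E-protein partners and the Id inhibitors, 3 of 4 that could be called were higher in NSC than in ESC-2i and none was lower. Against ESC-FCS 3 of 7 were higher and 2 lower, and the median log2 ratio was 0.34 in place of 3.29. The lower genes were Id1 (5 molecules in NSC and 17 in ESC-FCS) and Id2 (1 and 18), named after their values were seen. Tcf4 and Tcf12, E proteins that pair with bHLH factors, had 83 and 50 molecules in NSC, at 20.1-fold and 40.4-fold the ESC-2i level. Id3, an inhibitor of such pairs, had 37 molecules in NSC, 19 in ESC-2i and 47 in ESC-FCS. Its levels were 2.44 in NSC, 0.52 in ESC-2i and 2.07 in ESC-FCS. Of 18 neural homeobox and zinc finger factors, 4 of 5 were higher in NSC than in ESC-2i and none lower. The counts against ESC-FCS were the same. All 4 genes passed the limit of molecules through their NSC counts, so the counts describe them and support no statement on the group. Nfia, a factor of gliogenesis, had 57 molecules in NSC and none in either ESC population, Nfib 38 against 8 and 1, and Rfx4 31 against 5 and 1.

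Of 23 other Notch pathway genes, 2 of 7 were higher and 3 lower in NSC than in ESC-2i, with a median log2 ratio of 0.06, and 2 of 8 were higher and 3 lower than in ESC-FCS (-0.02). Hes6, an inhibitor of Hes1, had 18 molecules in NSC, 11 in ESC-2i and 9 in ESC-FCS, at levels of 1.19, 0.30 and 0.40. Jag1, a ligand, had 15, 9 and 7 molecules, at levels of 0.99, 0.24 and 0.31. Rbpj, the DNA-binding partner of the Notch receptors, had 8, 58 and 45, a level of 0.53 in NSC against 1.57 and 1.99. Hey1, a target like the Hes genes, had 8, 1 and 1.

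Markers of the populations were as follows. All 5 neural stem cell markers were called higher in NSC than in either ESC population. Of all genes, 22.9% were higher than in ESC-2i and 25.1% than in ESC-FCS. The markers were led by Fabp7 (376 molecules against 1 and 1), Vim (130 against 59 and 18) and Nes (47 against 6 and 2). All but Vim passed the limit of 10 molecules through their NSC counts. The count therefore describes the markers and supports no statement on the group. Of 5 embryonic stem cell markers 4 had no molecule in NSC, among them Nanog and Pou5f1, and the fifth had 1. Nanog had 172 molecules in ESC-2i and 68 in ESC-FCS. Pou5f1 had 19 and 4, too few in ESC-FCS for a call against NSC. Markers of the oligodendrocyte lineage other than the Olig genes had few molecules in NSC, where a count of 0 allows up to 0.24 per 10000. Whether the NSC held cells of that lineage was not tested. Of 4 oligodendrocyte precursor markers 3 were among the genes counted. Pdgfra had 4 molecules in NSC and Nkx2-2 had 1, with 0 of either in the ESC populations. Sox10 had none in NSC and 2 in ESC-2i, and Cspg4 was not among the genes counted. The 4 oligodendrocyte markers together had 2 molecules in NSC, 10 in ESC-2i and 5 in ESC-FCS. Of 4 astrocyte markers 2 were among the genes counted, and so were 2 of 4 endoderm and mesoderm markers. None of these had a molecule in NSC. The astrocyte markers had 20 molecules in ESC-2i and 0 in ESC-FCS, and the endoderm and mesoderm markers had 3 and 2. Of 5 neuronal markers Map2 had 59 molecules in NSC, none in ESC-2i and 6 in ESC-FCS, while Stmn2 had 0, 93 and 100. The summed neuronal markers ranged from 0 to 17.9 per 10000 over NSC, and their relation to Sox4 and Sox11 in a cell was not tested.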

How the data were processed

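BATSeq libraries of single cells and of pools of 48 cells were used. The authors deposited, for each cell and polyadenylation site, counts of molecules (UMIs) and counts of reads, made from reads aligned to GRCm38, by merging UMIs and positions and assigning sites up to 20 kb beyond a gene to it, without normalization. The gene table holds the sums for 107 cells. In the site tables the last 2 column names are exchanged, and columns were read by content.

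The members and lists were chosen with earlier results of these data known. All members, and of each list the 3 genes with the most NSC molecules, are named. For members with at least 40 NSC molecules, the gene with the highest r among genes with at least 20 is named too. Cells in the gene table with at least 1000 molecules were used. Populations and batches came from the labels. Levels, shares and ratios have exact intervals (Poisson, Clopper-Pearson, conditional binomial), and a count of 0 in a ratio was set to 3. Such a ratio is a bound without an interval, which leaves out counting error in the other population. Variable genes followed Brennecke and colleagues, with a CV2 margin of 0.25 and a normalized mean above 0.5, and cells of 1 culture as units, so that their p-values measure only the spread between cells. Fold calls and the variability test were tested on simulated data. Sites were placed on GENCODE M21 (GRCm38). Python 3.11.15, numpy 2.4.6 and scipy 1.17.1 were used. Alternatives covered cell limits, scaling, batches, reads, site distance and test settings, and 3 were added after the data were seen.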

Additional observations from a re-analysis of the deposited data

Results flagged for a closer look

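Molecules antisense to Sox11, which enter no level above, were found in the 2 ESC-2i pools, 6 in all, of which 5 were in 1 library. No antisense molecule of the other 8 genes was found in any library, and no Sox11 one in the single cells.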

How the results depend on the processing

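The number of members called higher in NSC than in ESC-2i (8) ranged from 5 to 7 when a library batch was left out, with 5 called without NSC batch 2, and that against ESC-FCS (7) from 5 to 7. Without a minimum of molecules 4 members were at least 2-fold apart between the ESC populations, and 2, Sox4 and Sox11, with the ESC-2i pools in place of the cells, where the main count is 0 (both chosen after seeing the data). Of the 4, the ratios of ESC-2i to ESC-FCS for Olig1 (0.005 to 5.91), Sox4 (0.028 to 2.15) and Hes1 (0.410 to 21.2) had intervals that include 1. The Sox11 ratio was a bound from 0 against 5 molecules. Shares over all genes were not computed at these settings or with a batch left out. Without NSC batch 1 the Hes1 ratio of NSC to ESC-2i reversed to 0.730. The Olig1 level in NSC was 4.02 without batch 1 and 8.02 without batch 2. The number of variable genes (124) was 342 without a margin, 51 with a margin of 0.5, 27 in cells with at least 2000 molecules, 262 with a mean above 0.25, and 33 to 84 without a batch. The Olig2 adjusted p was 4.3e-05, 0.829, 1.00 and 0.0601 in the first 4 of these. The causes were not tested. Of 152 alternatives of ratios with an interval 145 stayed within it, and of 90 of lower bounds 62 stayed within 1.5 times. No paired analysis was possible because the populations were compared without a test and replicate numbers only name cells. At these depths ratios that rest on 1 or 2 ESC molecules have wide intervals.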
